A study of Arabidopsis thaliana with 60 samples.

Results

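Leaves that had been infiltrated with Mock solution and collected 300 min later were compared, across all genes, with leaves that had not been touched. The Mock 300 min group was the 3 libraries with that label. The untouched group was the 6 libraries labelled Ed 0 min and flg22+Ed 0 min, 3 of each. These 9 libraries were chosen by their labels from the 60 of the series, which holds 20 groups of 3. All plants carried one genotype in the Arabidopsis thaliana accession Col-0: mutations in DDE2 (jasmonate synthesis), EIN2 (ethylene signalling), PAD4 and SID2 (both needed for salicylic acid signalling), with a transgene that makes the bacterial effector AvrRpt2 when estradiol (Ed) is given. The untouched controls carry the 4 mutations and the transgene too, and neither group had received estradiol or the flagellin peptide flg22. Mock solution was 0.1% ethanol. Plants were 4 weeks old, had grown at 22 C and 75% relative humidity with 12 h of light and 12 h of darkness, and were treated 3 to 4 h after subjective dawn. Each library pooled 2 leaves from each of 2 plants, and the 3 replicate numbers mark 3 independent experiments. Collection at 300 min also came 300 min later in the day, so infiltration and the time of day cannot be told apart here.

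The circadian clock of Arabidopsis is a loop of transcription regulators that act at successive times of day. The MYB proteins CCA1 and LHY peak around dawn and repress genes of the afternoon and evening, among them TOC1, PRR5, GI and ELF4, through a short promoter sequence called the evening element; the evening proteins repress CCA1 and LHY in turn. The loop times much of leaf metabolism, including the storage of starch by day and its breakdown by night, so leaves taken some hours apart differ even when nothing has been done to them.

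Counts came from Smart-3SEQ, a method that reads the 3' ends of messenger RNA. The 9 libraries held 2082400 to 3868874 counts, the fewest in Mock 300 min replicate 3, and detected 18096 to 18760 genes each. Levels are in CPM, the count of a gene relative to the total of its library, with that total scaled by a TMM factor. Fold changes are Mock 300 min over untouched on a log2 scale, with an error worked back from the F statistic of edgeR's quasi-likelihood test and a p adjusted over all genes tested by the Benjamini-Hochberg method. A call means an adjusted p under 0.05.

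Mock 300 min replicate 2 stood apart from the other Mock 300 min libraries. Over genes, its Spearman correlation was 0.837 to 0.853 with Mock 300 min replicates 1 and 3, and 0.943 to 0.972 with the 6 untouched libraries. Mock 300 min replicates 1 and 3 correlated at 0.94 with each other and at 0.816 to 0.857 with the untouched libraries, which correlated at 0.934 to 0.971 among themselves. Whether the label of replicate 2 holds cannot be told from these files, and it is kept as labelled. Each result is therefore given with it (9 libraries) and without it (8 libraries). Replicate 2 was singled out by its clock genes, LHY first, so the change of LHY without it is a description with no test, and calls of other clock genes share that choice. Leaving out a library because of its values narrows the spread within the group, so all calls without it are conditional on that choice.

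Promoters of some genes described below are shown first, each chosen because it holds the short sequence marked in it. Each is the 250 bases before the gene start in RefSeq TAIR10.1, written 5' to 3' on the strand of the gene in lower case. In the first 5, capitals mark the evening element, whose letters are AAAATATCT, on either strand. GRP7 encodes a clock-regulated RNA-binding protein; its promoter (chr2:9266558-9266807, minus strand) held 3 matches. AT4G30650 (chr4:14953954-14954203, plus strand) is annotated as a low temperature and salt responsive protein, and RbcX1 (chr4:2118618-2118867, minus strand) encodes a chaperone of Rubisco assembly. TOC1 (chr5:24674713-24674962, plus strand) and PRR5 (chr5:8358547-8358796, minus strand) encode evening and afternoon pseudo-response regulators of the clock. These 5 genes were higher in Mock 300 min replicates 1 and 3 than in every untouched library.
GRP7: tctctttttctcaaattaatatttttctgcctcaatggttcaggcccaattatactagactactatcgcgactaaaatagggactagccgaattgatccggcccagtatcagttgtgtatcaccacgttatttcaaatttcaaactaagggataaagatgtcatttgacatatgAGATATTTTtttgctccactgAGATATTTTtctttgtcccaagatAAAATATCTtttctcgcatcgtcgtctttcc
AT4G30650: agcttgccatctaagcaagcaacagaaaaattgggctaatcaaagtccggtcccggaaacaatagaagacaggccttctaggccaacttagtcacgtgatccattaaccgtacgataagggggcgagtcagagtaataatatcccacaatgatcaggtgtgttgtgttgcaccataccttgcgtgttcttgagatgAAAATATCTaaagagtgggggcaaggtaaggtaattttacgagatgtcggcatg
RbcX1: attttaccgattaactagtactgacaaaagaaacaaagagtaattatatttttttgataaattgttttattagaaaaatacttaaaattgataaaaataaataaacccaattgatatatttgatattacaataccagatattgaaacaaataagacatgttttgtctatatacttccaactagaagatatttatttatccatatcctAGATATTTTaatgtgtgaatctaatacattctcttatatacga
TOC1: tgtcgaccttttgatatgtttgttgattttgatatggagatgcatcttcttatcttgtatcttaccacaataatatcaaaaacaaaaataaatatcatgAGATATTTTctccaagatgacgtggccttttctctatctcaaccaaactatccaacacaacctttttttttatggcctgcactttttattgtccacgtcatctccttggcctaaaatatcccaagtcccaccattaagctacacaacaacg
PRR5: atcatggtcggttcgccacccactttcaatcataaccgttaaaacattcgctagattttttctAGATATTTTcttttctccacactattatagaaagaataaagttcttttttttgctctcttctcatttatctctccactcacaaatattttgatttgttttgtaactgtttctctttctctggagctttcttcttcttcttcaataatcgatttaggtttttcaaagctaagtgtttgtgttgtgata

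In the promoters of LHY (chr1:37872-38121, minus strand) and CCA1 (chr2:19245341-19245590, plus strand), the partner MYB genes of the dawn, capitals mark a G-box, CACGTG. In those of PDIL1-1 (chr1:7645360-7645609, plus strand) and PDIL1-2 (chr1:29126398-29126647, plus strand), which encode protein disulfide isomerases of the endoplasmic reticulum, capitals mark the endoplasmic reticulum stress element (ERSE), CCAATNNNNNNNNNNCACG. An ERSE can share its last 4 letters with a G-box, as in PDIL1-2. In the promoter of STV1 (chr3:19662026-19662275, minus strand), a gene of cytosolic ribosomal protein L24, capitals mark 3 site II elements, TGGGCC.
LHY: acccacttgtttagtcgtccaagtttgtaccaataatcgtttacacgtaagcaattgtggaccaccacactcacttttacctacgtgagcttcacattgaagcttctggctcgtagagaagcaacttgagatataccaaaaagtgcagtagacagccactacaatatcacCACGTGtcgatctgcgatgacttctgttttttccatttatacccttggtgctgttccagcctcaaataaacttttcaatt
CCA1: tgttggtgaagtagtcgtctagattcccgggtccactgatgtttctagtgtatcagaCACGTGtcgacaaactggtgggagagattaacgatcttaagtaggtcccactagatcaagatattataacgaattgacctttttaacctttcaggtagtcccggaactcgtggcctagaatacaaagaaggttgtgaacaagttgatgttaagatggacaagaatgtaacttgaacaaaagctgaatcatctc
PDIL1-1: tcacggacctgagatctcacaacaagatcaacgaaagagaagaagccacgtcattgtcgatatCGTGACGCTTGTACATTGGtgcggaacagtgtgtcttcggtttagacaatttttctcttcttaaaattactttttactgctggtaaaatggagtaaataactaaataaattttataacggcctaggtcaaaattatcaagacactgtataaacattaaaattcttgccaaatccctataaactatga
PDIL1-2: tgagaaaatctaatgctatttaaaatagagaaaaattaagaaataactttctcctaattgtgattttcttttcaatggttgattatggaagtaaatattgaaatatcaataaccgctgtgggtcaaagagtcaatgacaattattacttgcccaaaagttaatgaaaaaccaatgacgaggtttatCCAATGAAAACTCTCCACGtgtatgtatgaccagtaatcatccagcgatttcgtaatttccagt
STV1: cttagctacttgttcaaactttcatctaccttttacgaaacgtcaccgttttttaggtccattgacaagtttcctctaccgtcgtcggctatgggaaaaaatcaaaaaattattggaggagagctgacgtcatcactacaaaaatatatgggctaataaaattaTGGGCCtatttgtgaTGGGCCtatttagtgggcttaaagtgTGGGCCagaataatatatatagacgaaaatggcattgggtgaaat

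With all 9 libraries, 351 of 14556 genes were higher in Mock 300 min leaves (2.41%) and 18 were lower (0.124%), 369 in all (2.54%). A larger set, 3580 genes, had an unadjusted p under 0.05. Leaving out any 1 library other than Mock 300 min replicate 2 left 0 calls, so all calls with 9 libraries rest on the full set. With the replicate number as a block, 372 genes were higher and 59 lower. Without Mock 300 min replicate 2, 2254 genes were higher (15.5%) and 2458 lower (16.9%), 4712 in all (32.4%), and 6128 had an unadjusted p under 0.05. Of these calls, 1158 higher and 1421 lower genes changed by more than 1 on the log2 scale, and 96 and 109 by more than 3. The count without replicate 2 fell to 1414 higher and 1408 lower when Mock 300 min replicate 1 was left out too, and to 1467 and 1681 when replicate 3 was left out instead. A lone Mock library is then assumed to vary like the untouched ones. In bulk leaves, fewer cells of a type and less RNA per cell cannot be told apart.

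All 369 genes called with 9 libraries were called in the same direction with 8, where the 351 higher ones made up 7.45% of the calls and the 18 lower ones 0.382%. The fits differed more for genes that were lower: the change of LHY was -7.00 with 8 libraries and -1.52 with 9, and that of AT4G30650 was 7.19 with 8 and 6.62 with 9. All 3 Mock 300 min libraries lay above all 6 untouched libraries for 486 genes (3.34%) and below them for 467 (3.21%). Replicates 1 and 3 alone lay above all untouched libraries for 3340 genes (22.9%) and below them for 2950 (20.3%).

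**Figure D1:**
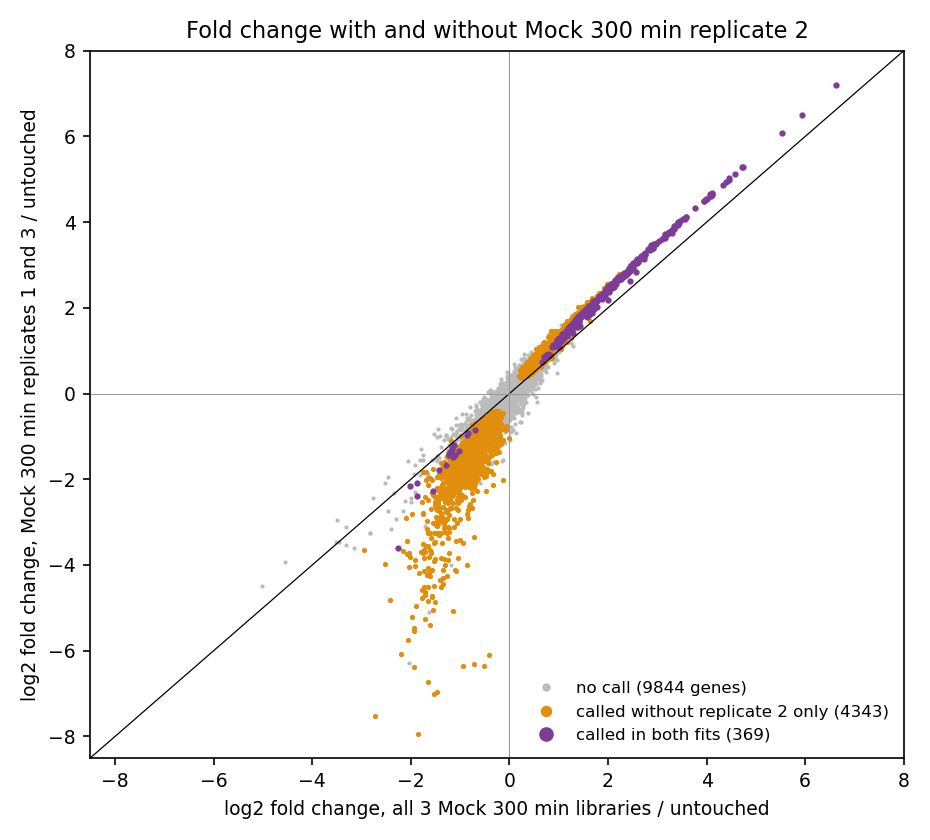
Each point is 1 of the 14556 genes. The x axis is the log2 fold change of all 3 Mock 300 min libraries over untouched, the y axis the same without Mock 300 min replicate 2, and the line marks equal values. The 369 genes called in both fits (purple) are mostly higher. Many lower genes called without replicate 2 only (orange) have far larger changes on the y axis than on the x axis, as LHY does at -7.00 and -1.52.

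The largest rises without replicate 2 were in AT4G30650, MEE14, GRP7, RbcX1 and PHS2. AT4G30650 had 1060, 7.07 and 938 CPM in Mock 300 min replicates 1, 2 and 3, against 3.32 to 8.28 CPM in untouched leaves (median 7.42). It was higher by 7.19 ± 0.234 without replicate 2 (adjusted p = 5.27e-09) and by 6.62 ± 0.935 with it (adjusted p = 0.0306). Replicates 1 and 3 were far above every untouched library and replicate 2 lay among them.

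MEE14, named for a maternal effect on embryo arrest, had 513, 10.6 and 501 CPM in the Mock 300 min libraries and 3.33 to 7.04 CPM in untouched ones (median 5.61), so that all 3 Mock 300 min libraries lay above the untouched ones. Its change was 6.49 ± 0.204 without replicate 2 (adjusted p = 4.46e-09) and 5.93 with it (adjusted p = 0.0306). RbcX1 had 255, 4.42 and 242 CPM, against 4.85 to 7.43 CPM in untouched leaves (median 6.28), and rose by 5.29 ± 0.158 without replicate 2 (adjusted p = 3.42e-09) and by 4.73 with it (adjusted p = 0.0306). In RbcX1, replicate 2 was the lowest of the 9 libraries. The zinc finger gene IDD2 had 61.9, 5.01 and 66.9 CPM, against 1.39 to 2.4 CPM in untouched leaves (median 2.05), with no overlap. It passed the filter on low counts only through the Mock libraries. Its fitted changes, 4.98 without replicate 2 and 4.45 with it, are therefore given with no test. AT3G47160, annotated as a RING/U-box protein, rose by 5.13 and 4.57 in these fits. AT2G33830, annotated as a dormancy and auxin associated protein, had 874, 35.1 and 1000 CPM, against 24.8 to 34.4 CPM in untouched leaves (median 30.1), and rose by 4.93 and 4.39 (adjusted p = 3.42e-09 and 0.0306). AT1G70820, annotated as a putative phosphoglucomutase, had 236, 13 and 179 CPM, against 6.56 to 10.5 CPM in untouched leaves (median 7.58), also without overlap, and rose by 4.63 and 4.10 (adjusted p = 3.07e-08 and 0.0306).

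At the other end were genes nearly silent in Mock 300 min replicates 1 and 3. AT3G09450, ELIP1, BBX32 and AO passed the filter on low counts only through the untouched libraries, so they are given with no test. AT3G09450, annotated in the fusaric acid resistance family, had 0 counts in Mock 300 min replicates 1 and 3 and 195 in the untouched libraries together. It was at least 16.6-fold lower, against a limit of 3 counts over the group. Replicate 2 had 6.78 CPM, within the untouched range of 6.28 to 14 CPM (median 7.52). ELIP1, an early light-induced protein of the thylakoid, had 0 counts against 144, at least 12.3-fold lower by the same limit. It had 2.65 CPM in replicate 2 and 2.3 to 10.6 CPM in untouched leaves (median 6.65). BBX32, a B-box regulator of light signalling, had 3 counts in replicates 1 and 3 against 813 in untouched leaves. The untouched over Mock ratio was 69.2 with a 95% counting interval of 23.6 to 336. Replicate 2 lay inside the untouched range of 21.7 to 46.2 CPM (median 39). AO, the L-aspartate oxidase of NAD synthesis, had 3 counts against 532, a ratio of 45.3 (15.4 to 220). Such intervals and limits cover counting error only.

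Among the lower genes with more counts, LEA3 of the late embryogenesis abundant family had 7.81, 253 and 7.66 CPM in the Mock 300 min libraries, against 229 to 462 CPM in untouched leaves (median 348). It fell by 5.54 ± 0.351 without replicate 2 (adjusted p = 7.96e-07) and had a change of -1.94 with it (adjusted p = 0.216). AT2G27420, annotated as a cysteine proteinase, fell by 5.75 without replicate 2 (adjusted p = 8.71e-07), and BBX31, another B-box gene, by 5.41 (adjusted p = 1.05e-05). None of AT3G09450, ELIP1, BBX32, AO, LEA3, AT2G27420 and BBX31 was called with 9 libraries.

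Among clock genes of the morning, the largest falls were in LHY, RVE8 and CCA1, in Mock 300 min replicates 1 and 3 but not in replicate 2. Replicate 2 was singled out by its clock genes. The p-values of clock genes without it therefore follow in part from that choice and are no independent support. LHY had 3.07, 316 and 1.53 CPM in Mock 300 min replicates 1, 2 and 3, against 252 to 338 CPM in untouched leaves (median 326). Its fitted change was -7.00 without replicate 2, given with no test, and -1.52 ± 1.10 with it (adjusted p = 0.404). CCA1 had 6.97, 158 and 6.64 CPM, against 110 to 187 CPM (median 155). Both genes were low in replicates 1 and 3, while replicate 2 lay inside the untouched range. CCA1 fell by 4.51 ± 0.292 without replicate 2 (adjusted p = 8.73e-07) and had a change of -1.38 with it (adjusted p = 0.306). RVE8, a related MYB protein that activates evening genes, had 2.79, 56 and 1.53 CPM, against 58.5 to 76.2 CPM (median 62.6), so that all 3 Mock 300 min libraries lay below the untouched ones, replicate 2 by little. It fell by 4.85 ± 0.268 without replicate 2 (adjusted p = 2.88e-07), with a change of -1.66 with it (adjusted p = 0.204). RVE1, which links the clock to auxin, had 3.07, 101 and 6.64 CPM, against 62.8 to 116 CPM (median 95.8), and fell by 4.44 ± 0.359 without replicate 2 (adjusted p = 4.45e-06).

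The LNK coactivators that work with RVE8 moved the same way without replicate 2: AT3G12320 (LNK3) fell by 2.97, AT3G54500 (LNK2) by 2.83, AT5G06980 (LNK4) by 2.48 and AT5G64170 (LNK1) by 1.89. ASG4, another RVE8 relative, fell by 4.49 and LCL1 by 1.01. The daytime repressor PRR7 went the other way: it had 132, 38.9 and 84.3 CPM in Mock 300 min libraries, against 16.6 to 40.2 CPM in untouched leaves (median 34.7). PRR7 rose by 1.72 ± 0.284 without replicate 2 (adjusted p = 0.00079), with a change of 1.39 with it (adjusted p = 0.0605). EPR1, a MYB-like clock output gene, had 16.5, 6.78 and 12.8 CPM, against 3.33 to 6.45 CPM (median 4.87), all Mock 300 min libraries above all untouched ones, and rose in both fits (1.61, adjusted p = 0.000795, and 1.32, adjusted p = 0.0438). PRR9 had a change of -0.79 without replicate 2 (adjusted p = 0.21). Of the 15 morning clock genes, 14 were tested. Without replicate 2, 2 rose (14.3%, beside 15.5% of all genes) and 10 fell (71.4%, beside 16.9%). The median was -2.66, beside -0.0111 over all genes tested. LHY, by which replicate 2 was singled out, is counted in these values, so they are given as a description. With all 9 libraries 1 rose and 0 fell, with a median of -1.24, beside 0.00411 over all genes.

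Among genes of the afternoon and evening, GI, PCL1 and TCP11 rose, and TOC1 was higher in Mock 300 min replicates 1 and 3. The p-values of evening genes without replicate 2 also share the choice of that library by its clock genes. GI, a scaffold of the evening clock and of flowering time, had 76.7, 2.36 and 59.8 CPM in Mock 300 min replicates 1, 2 and 3, against 2.85 to 7.71 CPM in untouched leaves (median 4.8). Replicate 2 was below every untouched library. GI rose by 3.72 ± 0.228 without replicate 2 (adjusted p = 6.12e-07) and by 3.16 ± 0.648 with it (adjusted p = 0.036). TOC1 had 23.2, 1.18 and 23 CPM, against 1.06 to 3.71 CPM (median 1.73), with replicates 1 and 3 alike and replicate 2 inside the untouched range. TOC1 passed the filter on low counts only with the help of Mock 300 min replicates 1 and 3. Its fitted changes, 3.47 without replicate 2 and 2.91 with it, are therefore given with no test. PCL1 (LUX), the DNA-binding subunit of the evening complex, had 19.5, 8.55 and 30.1 CPM, against 7.13 to 13.6 CPM (median 10.4), and rose by 1.22 ± 0.257 without replicate 2 (adjusted p = 0.00371), with a change of 0.88 with it (adjusted p = 0.141). TCP11 (CHE), which represses CCA1, had 97.9, 34.5 and 96.6 CPM, against 40 to 84.1 CPM (median 51.6), and rose by 0.75 (adjusted p = 0.0309). ZTL, a blue light receptor that marks clock proteins for breakdown, had 25.9, 30.1 and 26.1 CPM, against 21.3 to 33.4 CPM (median 27.5), with a change of -0.10 (adjusted p = 0.743). Of 12 listed genes 6 were tested. Without replicate 2, 4 rose (66.7%, beside 15.5% of all genes) and 0 fell (median 0.98). With it, 2 rose (33.3%, beside 2.41%). TOC1 is counted in these values though it is given no test.

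The filter on low counts was set on 9 libraries and left out genes that were high in Mock 300 min replicates 1 and 3 only. Setting it on the 8 libraries tested 15075 genes, of which 2412 were higher (16%) and 2543 lower (16.9%), a choice made after the data were seen. The following genes passed that filter only through the Mock libraries, so they are given as values with a fitted change and no test. ELF4, the evening complex subunit that peaks at dusk, had 35.4, 0.295 and 28.6 CPM, against 0 to 0.832 CPM (median 0.413), with a fitted change of 5.96. ELF3, its partner, had 19.2, 2.06 and 11.8 CPM, against 0.555 to 2.04 CPM (median 1.38), with a fitted change of 3.42. Replicate 2 was inside the untouched range for ELF4 and just above it for ELF3. FKF1, a blue light receptor of the flowering pathway, had 29.8, 0 and 26.6 CPM, against 0 to 0.571 CPM (median 0.289), with a fitted change of 6.43. PRR5 had 53 counts in Mock 300 min replicates 1 and 3 against 1 in untouched leaves, a Mock over untouched ratio of 207 with a 95% counting interval of 35.7 to 8350. PRR3, a pseudo-response regulator that binds TOC1, had 10.3, 0 and 4.6 CPM, against 0 to 0.857 CPM (median 0.133), with a fitted change of 4.81.

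**Figure D2:**
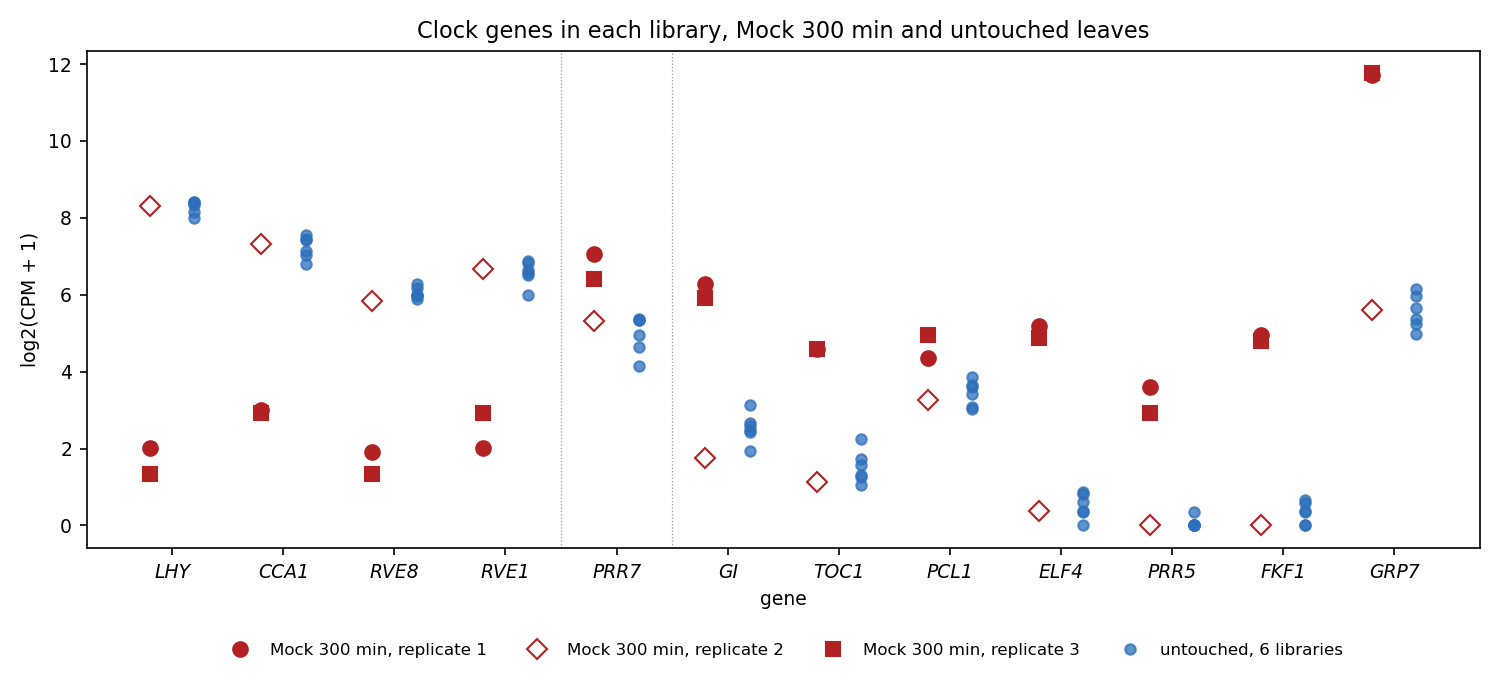
Levels of 12 clock genes as log2(CPM + 1) in each library, with the Mock 300 min replicates in red left of the 6 untouched libraries in blue. Genes left of the first dotted line are morning genes, PRR7 stands between the lines, and genes to the right are of the afternoon and evening, with GRP7 as a clock output. Replicates 1 and 3 lie below untouched leaves on the left (LHY at 3.07 and 1.53 CPM) and above them on the right (GRP7 at 3330 and 3460 CPM). Replicate 2 (open diamonds) lies in or near the range of the untouched libraries, just below it for RVE8 and GI.

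Clock output and light signalling genes moved in both directions. GRP7 had 3330, 48 and 3460 CPM in Mock 300 min replicates 1, 2 and 3, against 30.8 to 69.9 CPM in untouched leaves (median 44.7). It rose by 6.09 ± 0.243 without replicate 2 (adjusted p = 3.01e-08) and by 5.53 ± 0.815 with it (adjusted p = 0.0306). Its relative CCR1 (GRP8) had 753, 140 and 760 CPM, against 102 to 143 CPM (median 133), and rose by 2.51 and 2.07 in the 2 fits (adjusted p = 2.49e-07 and 0.0306). In both, replicate 2 lay inside the untouched range.

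A pair of catalase genes with opposite daily phases moved apart. CAT3, the evening catalase, had 1270, 144 and 530 CPM, against 147 to 251 CPM in untouched leaves (median 167), and rose by 2.26 ± 0.268 without replicate 2 (adjusted p = 8.09e-05). CAT2, the morning catalase, which clears peroxide made in photorespiration, had 587, 3150 and 343 CPM, against 3330 to 4680 CPM (median 3610), and fell by 3.05 ± 0.239 without replicate 2 (adjusted p = 3.75e-06). For CAT2 all 3 Mock 300 min libraries lay below the untouched ones, replicate 2 by little. The light-signalling factor HYH had 1.67, 25.6 and 2.55 CPM, against 23.7 to 42.7 CPM (median 34.5). It passed the filter on low counts only through the untouched libraries, so its fitted fall of 4.06 without replicate 2 is given with no test. HY5, another such factor, fell by 2.48 without replicate 2 (adjusted p = 0.000321). The blue light receptor gene CRY2 rose by 1.53 and the red light receptor genes PHYA and PHYB by 0.84 and 0.82. Of 23 tested genes of this list, 6 rose (26.1%, beside 15.5% of all genes) and 14 fell (60.9%, beside 16.9%) without replicate 2 (median -0.99). With it, 2 rose (8.7%, beside 2.41%) and 0 fell. ELIP1 and HYH are members of this list and are counted here though neither is given a test.

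Most genes of starch breakdown rose. PHS2, the cytosolic starch phosphorylase, had 346, 8.55 and 311 CPM in Mock 300 min replicates 1, 2 and 3, against 5.82 to 12.2 CPM in untouched leaves (median 7.5). It rose by 5.28 ± 0.216 without replicate 2 (adjusted p = 3.13e-08) and by 4.72 ± 0.72 with it (adjusted p = 0.0306). SEX1, the glucan water dikinase that opens the granule surface, had 646, 31.2 and 270 CPM, against 17.8 to 35.1 CPM (median 29). Replicates 1 and 3 lay far above the untouched range here too, at unequal levels. SEX1 rose by 3.98 ± 0.278 without replicate 2 (adjusted p = 1.47e-06) and by 3.45 with it (adjusted p = 0.0306). SEX4, the phosphatase that follows it, had 99.9, 8.84 and 71.5 CPM, against 3.58 to 6.45 CPM (median 5.07), with no overlap even for replicate 2. It rose by 4.07 ± 0.198 and 3.56 ± 0.517 (adjusted p = 8.44e-08 and 0.0306).

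The debranching enzyme ISA3 had 64.2, 1.18 and 49.1 CPM, against 0.798 to 2.86 CPM in untouched leaves (median 1.3). It passed the filter on low counts only with the help of Mock 300 min replicates 1 and 3. Its fitted changes, 5.02 and 4.45 in the 2 fits, are therefore given with no test. DPE1, which rearranges maltotriose, had 67.8, 3.24 and 73.6 CPM, against 2.57 to 4.98 CPM (median 4.08), and rose by 4.12 and 3.58 (adjusted p = 7.35e-08 and 0.0306). Replicate 2 lay inside the untouched range for both. The amylase AMY3 had 190 and 150 CPM in Mock 300 min replicates 1 and 3, against 15.5 to 20.3 CPM (median 16.5), with replicate 2 just above that range, and rose by 3.23 and 2.74 (adjusted p = 7.03e-08 and 0.0306). PHS1, the plastid phosphorylase, rose by 3.70 without replicate 2, PWD, another dikinase, and DPE2, which handles maltose in the cytosol, by 2.64 each, and LDA, the limit dextrinase, by 1.80. The beta-amylase genes did not follow. BAM1 had 27.1, 111 and 40.4 CPM, against 79 to 139 CPM (median 113), and fell by 1.80 without replicate 2 (adjusted p = 0.000385). CT-BMY (BAM3) had 248, 285 and 161 CPM, against 250 to 368 CPM (median 316), and fell by 0.66 (adjusted p = 0.032). BMY3, a beta-amylase-like gene that is in no list, had 4.74, 102 and 3.07 CPM, against 119 to 197 CPM (median 140), and fell by 5.21 (adjusted p = 4.61e-07). Over the list of 14, 11 rose (78.6%, beside 15.5% of all genes) and 2 fell (14.3%, beside 16.9%) without replicate 2 (median 2.94). With it, 9 rose (64.3%, beside 2.41%) and 0 fell (median 2.46), the highest share of any list with 9 libraries. ISA3 is counted in these values though it is given no test.

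On the side of starch synthesis, GBSS1, the granule-bound synthase that makes amylose and is transcribed under CCA1 and LHY, had 11.2, 429 and 16.4 CPM in the Mock 300 min libraries, against 423 to 550 CPM in untouched leaves (median 521). It fell by 5.27 ± 0.23 without replicate 2 (adjusted p = 5e-08), with a change of -1.71 with it (adjusted p = 0.261). Replicates 1 and 3 were far below, and replicate 2 was inside the untouched range. The branching enzyme SBE2.1 rose by 2.50 and the synthase SS4 by 2.08, and of 10 listed genes 4 rose (40%) and 2 fell (20%) without replicate 2 (median 0.22). Among 15 tested sucrose and sugar response genes, 6 rose (40%, beside 15.5% of all genes) and 1 fell (6.67%; median 0.28). DYL1, which rises when sugar is scarce, had 222, 24.2 and 327 CPM, against 14.1 to 27.6 CPM (median 23.7), and rose by 3.55 without replicate 2 and 3.04 with it (adjusted p = 4.24e-07 and 0.0306). DIN10, a dark-induced raffinose synthase family gene, had 187, 24.8 and 230 CPM, against 23.6 to 42.6 CPM (median 30.3), and rose by 2.69 and 2.20 (adjusted p = 1.57e-06 and 0.0375). SPS1F, a sucrose phosphate synthase, rose by 0.82 and its relative ATSPS4F fell by 1.00.

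Photosynthesis genes split between the light reactions and carbon fixation. Photosystem and antenna genes, which mark leaf tissue, summed to 247000, 183000 and 266000 CPM in the Mock 300 min libraries, against 174000 to 214000 CPM in untouched leaves. All 37 were tested, and 13 rose (35.1%, beside 15.5% of all genes) and 2 fell (5.41%) without replicate 2 (median 0.26). LHB1B1, a light-harvesting antenna protein of photosystem II, had 10100, 3320 and 11300 CPM, against 3110 to 4320 CPM (median 3530), and rose by 1.52 ± 0.13 without replicate 2 (adjusted p = 7.15e-06), with a change of 1.16 with it (adjusted p = 0.0549). It has near-identical copies, and how reads shared between copies were counted is not given in the sources used here, which also holds for RBCS1B and the BIP genes below. NPQ4, the photoprotection sensor PsbS, fell by 1.01.

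In carbon fixation and photorespiration, 1 of 25 tested genes rose and 16 fell (64%, beside 16.9% of all genes; median -0.59). The riser, CP12-1, had a change of 0.38 (adjusted p = 0.0443) and was not called with the replicate block, where 0 rose. FBA1, a plastid aldolase, had 811, 3190 and 787 CPM, against 3160 to 4160 CPM in untouched leaves (median 3710). It fell by 2.25 ± 0.16 without replicate 2 (adjusted p = 1.64e-06), with a change of -1.21 with it (adjusted p = 0.116). RBCS1B, a small subunit of Rubisco, had 691, 2260 and 896 CPM, against 2250 to 3020 CPM (median 2450), and fell by 1.72 without replicate 2 (adjusted p = 1.69e-05). RCA, the activase of Rubisco, fell by 1.00 and CP12-2, a redox linker of cycle enzymes, by 1.55. Neither photosynthesis list had a call with 9 libraries. Among 14 pigment synthesis genes, 3 rose (21.4%) and 6 fell (42.9%) without replicate 2 (median -0.50). PORB, the light-dependent protochlorophyllide reductase, had 1350, 62.2 and 1610 CPM, against 33.6 to 62.4 CPM (median 49.1), and rose by 4.87 and 4.33 in the 2 fits (adjusted p = 5e-08 and 0.0306). PORA rose by 1.97, while GUN5 and GUN4 of magnesium chelatase fell by 1.16 and 0.84.

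Markers of other leaf cell types were read against the 15.5% of all genes that were higher and the 16.9% that were lower. None of 7 tested guard cell markers was called, and the 9 listed summed to 716, 719 and 652 CPM in the Mock 300 min libraries, against 617 to 925 CPM in untouched leaves. Of 7 tested epidermis markers 0 rose and 3 fell (42.9%), the wax and cuticle genes CER1 (-1.48), KCS1 (-0.95) and KCS10 (-0.45), and the 8 listed summed to 2930, 2440 and 3180 CPM, against 2160 to 3200 CPM. Of 9 phloem markers 1 rose (11.1%) and 2 fell, with sums of 807, 869 and 886 CPM, against 846 to 926 CPM. The riser was SWEET12, a sucrose exporter of phloem parenchyma, with 38.2, 2.95 and 28.6 CPM, against 2.93 to 9.13 CPM (median 4.5), higher by 2.72 ± 0.311 (adjusted p = 6.14e-05), with a change of 2.19 with replicate 2 (adjusted p = 0.0638). None of 3 tested xylem markers was called, with sums of 19.8, 14.7 and 30.1 CPM, against 13.6 to 28.5 CPM. No listed marker was at 0 in all 9 libraries. The part of cell composition in the results was not tested.

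Cold response genes that were called without replicate 2 were mostly higher in Mock 300 min leaves. All plants had grown at 22 C, and the cause of the change was not tested. LTI30, a dehydrin, had 116, 3.83 and 50.6 CPM in Mock 300 min replicates 1, 2 and 3, against 1.33 to 7.71 CPM in untouched leaves (median 2.51). It rose by 4.65 ± 0.433 without replicate 2 (adjusted p = 1.32e-05) and by 4.10 ± 0.749 with it (adjusted p = 0.0306). GolS3, a cold-induced galactinol synthase, had 100, 18.6 and 60.8 CPM, against 6.66 to 14.9 CPM (median 8.98), with all 3 Mock 300 min libraries above the untouched ones, and rose by 2.93 and 2.51 (adjusted p = 1.36e-05 and 0.0306). GolS2, the galactinol synthase of drought, had 9.76, 189 and 6.13 CPM, against 46 to 201 CPM (median 129), and fell by 3.99 without replicate 2 (adjusted p = 0.00147). The CBF activators, which switch on the cold regulon, were low in untouched leaves. CBF2 had 13.9, 2.36 and 13.3 CPM, against 1.28 to 7.19 CPM (median 3.28), and rose by 1.85 without replicate 2 (adjusted p = 0.00814). DREB1A (CBF3) and CBF1 entered only with the filter set on 8 libraries and are given as values. DREB1A had 51.6, 0.59 and 48.5 CPM, against 0 to 2.64 CPM (median 0.684), and CBF1 had 10.3, 0.295 and 9.2 CPM, against 0 to 0.857 CPM (median 0.394). These 3 genes are close copies in a row. Of 13 tested genes 7 rose (53.8%, beside 15.5% of all genes) and 2 fell (15.4%, beside 16.9%) without replicate 2 (median 1.51). With it, 2 rose (15.4%, beside 2.41%) and 0 fell.

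Chaperones of the endoplasmic reticulum rose as a group by moderate amounts. PDIL1-1 had 76.4, 15.6 and 86.9 CPM in the Mock 300 min libraries, against 8.88 to 13 CPM in untouched leaves (median 11.9), with all 3 above every untouched library. It rose by 2.76 ± 0.156 without replicate 2 (adjusted p = 3.41e-07) and by 2.32 ± 0.384 with it (adjusted p = 0.0306). PDIL1-2 had 29, 6.78 and 28.6 CPM, against 4.44 to 6.85 CPM (median 6.15), and rose by 2.23 and 1.81 (adjusted p = 7.53e-06 and 0.035). BIP1, the lumenal HSP70 that binds unfolded proteins, had 142, 53.4 and 249 CPM, against 40.2 to 57.4 CPM (median 47.6), and rose by 1.94 and 1.56 (adjusted p = 2.54e-05 and 0.0399). Replicates 1 and 3 were above the untouched range in each, and replicate 2 lay inside it for PDIL1-2 and BIP1. BIP2, CNX1 (calnexin), SDF2 and SHD (the HSP90 of the lumen) rose by 1.87, 1.72, 1.51 and 1.36 without replicate 2. BZIP60, a transcription factor of the unfolded protein response, had 30.7, 35.4 and 42.9 CPM, against 35.8 to 70.4 CPM (median 47), with a change of -0.53 (adjusted p = 0.153). With the replicate block 13 rose and 1, BZIP60, fell. Of 14 tested genes 13 rose (92.9%, beside 15.5% of all genes) and 0 fell without replicate 2 (median 1.44). With it, 5 rose (35.7%, beside 2.41% of all genes) and 0 fell (median 1.14).

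The cytosolic ribosomal protein genes fell together by small amounts. ATL5, which encodes ribosomal protein L5, had 100, 221 and 97.1 CPM in the Mock 300 min libraries, against 178 to 259 CPM in untouched leaves (median 215). It fell by 1.19 ± 0.178 without replicate 2 (adjusted p = 0.000408), with a change of -0.65 with it (adjusted p = 0.175). STV1 had 130, 250 and 132 CPM, against 205 to 292 CPM (median 229), and fell by 0.92 ± 0.163 (adjusted p = 0.00127), with a change of -0.50 with replicate 2 (adjusted p = 0.209). For both genes replicates 1 and 3 were below every untouched library and replicate 2 lay among them. All 11 listed genes fell without replicate 2 (beside 16.9% of all genes), by 0.73 to 1.19 on the log2 scale (median -0.99). With it, 0 were called (median -0.56).

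Calls among genes for the use of nitrate and the transport of water were mostly lower, while the sulfur list gave 1 call. NIA2, the main leaf nitrate reductase, had 219, 1180 and 162 CPM in the Mock 300 min libraries, against 1150 to 1370 CPM in untouched leaves (median 1240). It fell by 2.76 ± 0.174 without replicate 2 (adjusted p = 7.54e-07), with a change of -1.26 with it (adjusted p = 0.172). The nitrite reductase NIR1 and the other nitrate reductase NIA1 fell by 1.44 and 1.38, and of 7 tested genes 0 rose and 4 fell (57.1%, beside 16.9% of all genes; median -0.80). APR2, the main enzyme of sulfate reduction, had 64.7, 214 and 68.5 CPM, against 205 to 326 CPM (median 271), and fell by 2.06 (adjusted p = 6.13e-05), as the 1 call among 13 sulfur and glucosinolate genes (7.69%, below the 16.9% lower over all genes; median -0.35; 2 fell with the replicate block). Of 16 aquaporins, water channels of cell membranes, 1 rose and 10 fell (62.5%; median -0.67). RD28, a plasma membrane aquaporin, had 13.4, 97 and 8.69 CPM, against 95.9 to 115 CPM (median 103), and fell by 3.25 ± 0.21 without replicate 2 (adjusted p = 8.71e-07), with a change of -1.38 with it (adjusted p = 0.182). In all of these, replicates 1 and 3 lay below the untouched range. None of these 3 lists had a call with 9 libraries.

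Hormone genes were mixed. The type A response regulators, which cytokinin induces, had 0 higher and 5 lower of 7 tested without replicate 2 (71.4%, beside 16.9% of all genes; median -0.97). ARR9 had 29, 136 and 41.9 CPM, against 94.5 to 155 CPM in untouched leaves (median 137), and fell by 1.98 (adjusted p = 8.17e-05). ARR15 had 3 counts in Mock 300 min replicates 1 and 3 against 212, an untouched over Mock ratio of 18.1 (95% counting interval 6.09 to 88.2). ARR15 passed the filter on low counts only through the untouched libraries, so it is given no test, though it is counted above. In the abscisic acid list of 22 tested genes, 2 were called higher (9.09%) and 9 lower (40.9%; median -1.06). ABF1, a transcription factor of the response, had 61.6, 2.36 and 45.5 CPM, against 1.66 to 5.43 CPM (median 3.25), and rose by 3.94 and 3.38 in the 2 fits (adjusted p = 1.35e-06 and 0.0306). HAB1, a phosphatase that holds the response back, had 17, 163 and 17.9 CPM, against 94.9 to 220 CPM (median 173), and fell by 3.26 without replicate 2 (adjusted p = 5.61e-05). RD20, a drought-induced gene, fell by 2.85.

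Of 13 auxin response genes 1 rose (7.69%) and 5 fell (38.5%) without replicate 2 (median -0.72), beside 15.5% higher and 16.9% lower over all genes. The riser, IAA29, had 33.7, 21.5 and 57.2 CPM, against 5.82 to 19.4 CPM in untouched leaves (median 8.12), all Mock 300 min libraries above all untouched ones, and rose by 2.03 and 1.78 (adjusted p = 0.00124 and 0.0369). Of 4 tested gibberellin genes 1 rose (25%), the receptor gene GID1A (2.08, adjusted p = 0.00736), with 2 higher and 1 lower under the replicate block. Of 16 jasmonate genes 5 rose (31.2%) and 1 fell (6.25%; median -0.15; 2 fell with the replicate block), although the line lacks the DDE2 step of jasmonate synthesis. AOC2, the allene oxide cyclase that acts on the product of the DDE2 step, had 136, 26.8 and 150 CPM, against 8.95 to 36.6 CPM (median 22), and rose by 2.55 and 2.10 (adjusted p = 0.000246 and 0.0469). Of 9 phenylpropanoid and flavonoid genes 0 rose and 7 fell (77.8%; median -1.31). TT4, the chalcone synthase that starts flavonoid synthesis, had 1.67, 9.14 and 1.53 CPM, against 10.1 to 45.1 CPM (median 24.1). All 3 Mock 300 min libraries lay below all untouched ones. TT4 passed the filter on low counts only through the untouched libraries, so it is given no test, though it is counted above. Its fitted fall was 3.97 without replicate 2, and its fitted change was -2.53 with it. Of 16 expansin and xyloglucan genes of the cell wall 1 rose and 1 fell (6.25% each, below the shares over all genes; median -0.08; 2 and 3 with the replicate block).

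Genes that answer touch and wounding within minutes were not called at 300 min. Of 11 tested, 0 rose and 0 fell in edgeR's test with or without replicate 2 (median -1.54 and -1.58), DESeq2 called 0 higher and 1 lower without replicate 2, and with the replicate block 0 were higher and 6 lower. TCH4, a xyloglucan enzyme induced by touch, had 4.18, 8.84 and 18.9 CPM in the Mock 300 min libraries, against 3.52 to 503 CPM in untouched leaves (median 9.38). The 2 highest untouched values were both of replicate 3, 154 CPM labelled Ed and 503 CPM labelled flg22+Ed. The change was -3.47 ± 1.99 (adjusted p = 0.211). TCH3, a calmodulin-like protein, had 13.7, 34.8 and 73.1 CPM, against 21 to 453 CPM (median 54.7), and its highest untouched libraries, at 97.1 and 453 CPM, were the same ones. The summed list was 123, 152 and 307 CPM, against 147 to 1740 CPM. The groups overlapped throughout.

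Of 4 tested low oxygen genes 2 rose (50%, beside 15.5% of all genes) and 0 fell without replicate 2 (median 1.02). PDC2, a pyruvate decarboxylase of fermentation, had 71.4, 7.07 and 99.1 CPM, against 3.71 to 10.3 CPM in untouched leaves (median 5.22), and rose by 3.79 ± 0.248 without replicate 2 and 3.27 ± 0.559 with it (adjusted p = 9.72e-07 and 0.0306). AT4G17260, annotated as a lactate or malate dehydrogenase, rose by 1.71. Most of the 19 listed genes were too low to test. Of 5 tested cytosolic heat shock genes 0 rose and 3 fell (60%, beside 16.9% of all genes) without replicate 2 (median -1.38). Among them, HSP70 had 23.4, 219 and 28.1 CPM, against 63.3 to 222 CPM (median 176), lower by 2.67 (adjusted p = 0.000534). Of 6 tested genes of pattern recognition and salicylic acid defence, 2 rose (33.3%) and 0 fell (median 0.23). BAK1, the coreceptor of many immune receptors, had 22.9, 13.3 and 37.8 CPM, against 9.7 to 14.4 CPM (median 12.5), and rose by 1.24 ± 0.216 without replicate 2 (adjusted p = 0.00114), with a change of 0.96 with it (adjusted p = 0.0779). FLS2, the flagellin receptor, had 9.48, 0.59 and 10.2 CPM, against 0 to 1.14 CPM (median 0.563); it entered only with the filter set on 8 libraries and is given as values.

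**Figure D3:**
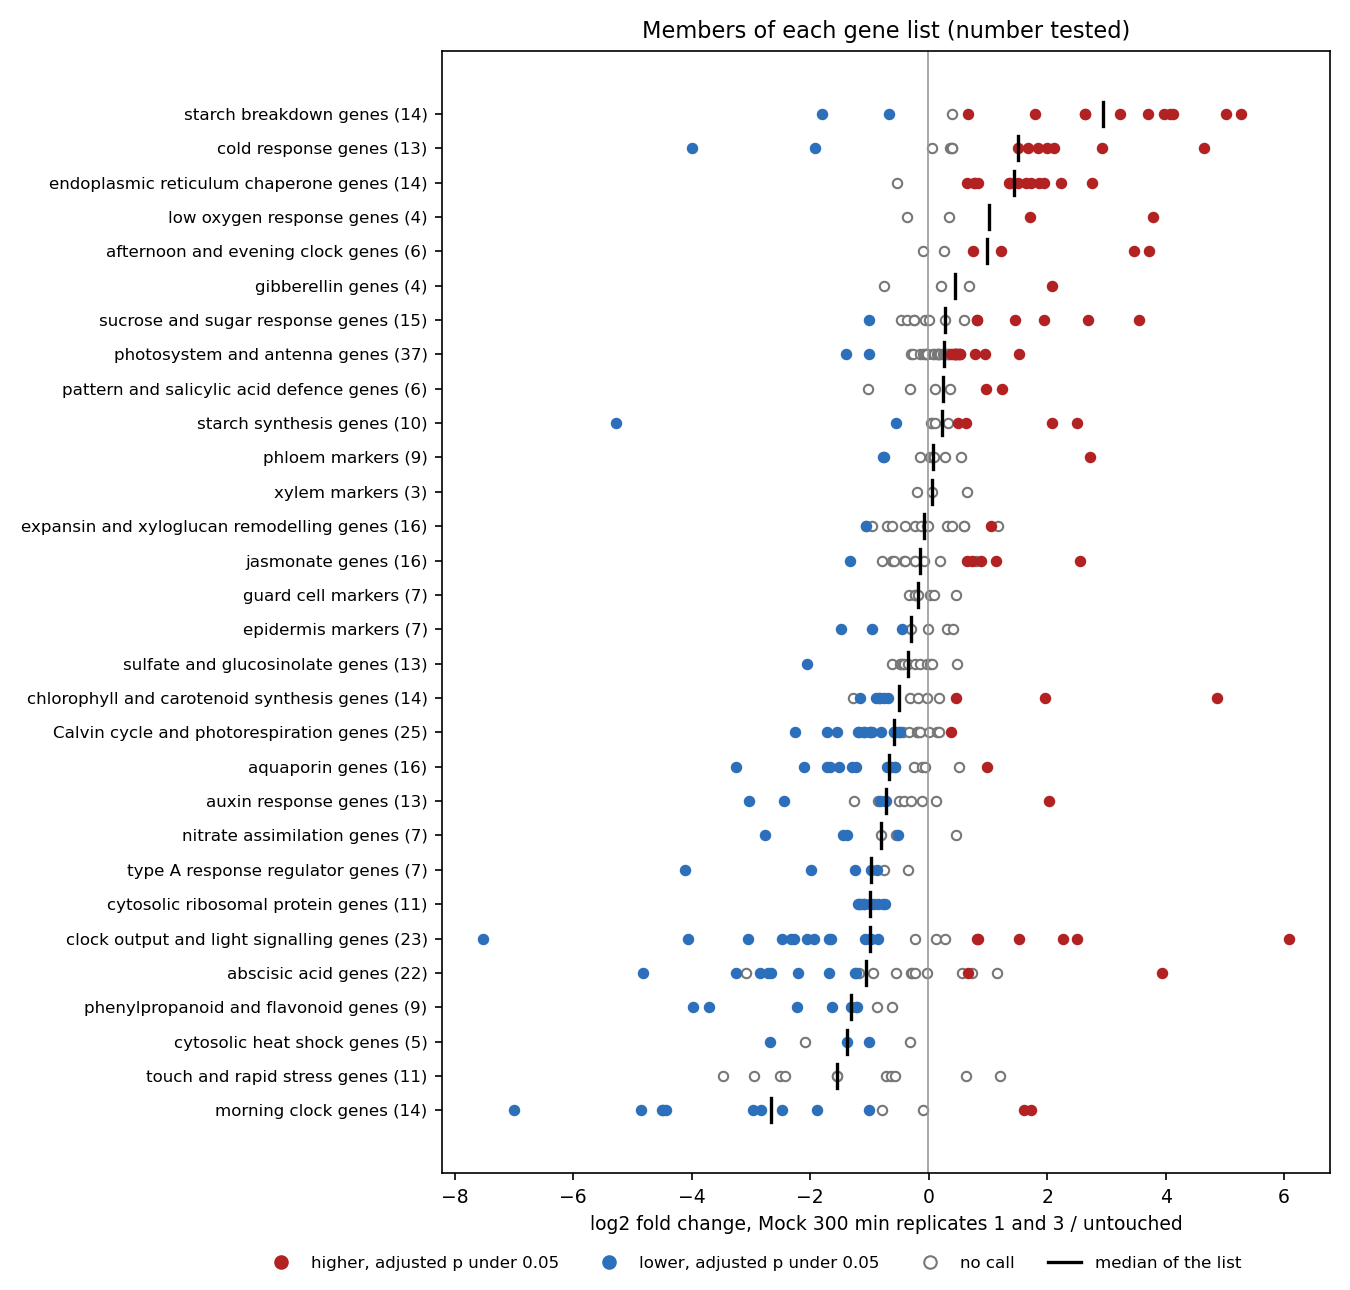
Each row is a gene list with the number of its genes tested in brackets. Points are genes at their log2 fold change of Mock 300 min replicates 1 and 3 over untouched on the x axis, red where higher, blue where lower and open where not called, black bars are list medians, and the grey line is the median of all genes. Starch breakdown has the highest median (2.94) and morning clock the lowest (-2.66), while the 11 ribosomal protein genes lie close together around -0.99.

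With 9 libraries 18 genes were called lower. Among those with all 3 Mock 300 min libraries below all untouched ones, the 5 with the largest fall were AT4G19820, AHP4, SAG21, AT5G55570 and PUB26. SAG21, a stress-induced late embryogenesis abundant protein, had 11.7, 45.7 and 32.2 CPM in the Mock 300 min libraries, against 60.5 to 177 CPM in untouched leaves (median 102), with all 3 below the untouched range. It fell by 1.87 with 9 libraries (error 0.427, adjusted p = 0.0469) and by 2.40 without replicate 2 (adjusted p = 0.00173). AHP4, a phosphotransfer protein of cytokinin signalling, had 0.558, 1.77 and 2.55 CPM, against 4.52 to 7.43 CPM (median 5.11). AT4G19820, annotated as a glycosyl hydrolase with a chitinase insertion domain, had 0.279, 3.83 and 1.53 CPM, against 6.93 to 13.5 CPM (median 7.86). Both passed the filter on low counts only through the untouched libraries. Their fitted falls with 9 libraries, 1.87 for AHP4 and 2.25 for AT4G19820, are therefore given with no test. PUB26, a U-box ubiquitin ligase, fell by 1.43 (adjusted p = 0.0435) and AT5G55570, an uncharacterized protein, by 1.54 (adjusted p = 0.0375). In these genes replicate 2 lay on the same side as replicates 1 and 3.

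Levels after Mock infiltration over time put the 300 min values in order. LHY had 158, 250 and 149 CPM in Mock replicates 1, 2 and 3 at 60 min, 42.4, 56.8 and 53.7 CPM at 120 min, 15, 10.6 and 9.84 CPM at 180 min, and 3.07, 316 and 1.53 CPM at 300 min. Apart from replicate 2 at 300 min, the level was lower at each later time. The other 9 libraries of the series taken at 300 min, after flg22, Ed or both, had 1.88 to 4.64 CPM of LHY. AT4G30650 had 98.2, 9.35 and 76 CPM at 60 min, 331, 312 and 389 CPM at 120 min and 569, 771 and 677 CPM at 180 min, before 1060, 7.07 and 938 CPM at 300 min. Here replicate 2 was low at 60 min too. PHS2 had 12.4, 11.1 and 10.3 CPM at 60 min, 86.4, 72.9 and 32.3 CPM at 120 min and 172, 159 and 128 CPM at 180 min. ELF4 had 0.562, 0.719 and 0.932 CPM at 60 min and 5.32, 1.81 and 1.09 CPM at 180 min, all 3 libraries at 180 min lying above the untouched range of 0 to 0.832 CPM.

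Between 180 and 300 min after Mock infiltration, edgeR's test called 0 of 15094 genes with all 3 replicates (0% higher, 0% lower, 0% in all), 1132 genes had an unadjusted p under 0.05, and DESeq2 called 48 higher and 36 lower. Without Mock 300 min replicate 2, 117 genes were higher at 300 min (0.775%) and 143 lower (0.947%), 260 in all (1.72%), and with the replicate block 227 and 297. These counts depended on single libraries: leaving out Mock 300 min replicate 1 or 3 as well gave 16 higher and 8 lower, or 41 and 22, leaving out Mock 180 min replicate 2 or 3 gave 47 and 42, or 80 and 79, and leaving out Mock 180 min replicate 1 gave 144 and 225. Among genes with a mean of at least 5 CPM at 1 of the times, the largest rise was in AT1G07050, annotated as a CCT motif protein. It had 41.3, 0.59 and 41.9 CPM at 300 min, against 0.924, 1.61 and 1.09 CPM at 180 min. At these times only Mock 300 min replicates 1 and 3 held more than a few counts of it. Its fitted change of 4.96 without replicate 2 is therefore given with no test. SWEET12 rose by 2.88 (adjusted p = 0.00305), with 4.39, 5.22 and 2.73 CPM at 180 min. ELF4 passed the filter on low counts only through Mock libraries, so its fitted change of 3.36 is given with no test. RVE8 fell by 2.78 ± 0.296 (adjusted p = 0.000817), with 15.5, 13.5 and 18 CPM at 180 min, and RD28 by 2.54 ± 0.301 (adjusted p = 0.0014), with 69.6, 39.8 and 83.7 CPM at 180 min. AT1G70640, annotated with a PB1 domain, rose by 2.90, and AT5G54130, annotated as a calcium-binding phosphatase family protein, fell by 2.53.

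Without replicate 2, 6 of 14 morning clock genes were lower still at 300 than at 180 min (42.9%, beside 0.947% of all genes). CCA1 fell by 2.12 (adjusted p = 0.00676). Of 9 evening ones 3 were higher (33.3%, beside 0.775%). LHY and ELF4 are counted here though neither is given a test. The other calls of clock genes share the choice of replicate 2 by its clock genes. GI rose further by 1.87 (adjusted p = 0.00305) and PCL1 by 1.40 (adjusted p = 0.0274), while TOC1 had a change of 1.61 (adjusted p = 0.0507). Of 14 starch breakdown genes 5 rose further, among them ISA3 (1.82, adjusted p = 0.00556) and DPE1 (1.52, adjusted p = 0.00305). None of 15 tested genes for endoplasmic reticulum chaperones was called between the times, nor any of 11 ribosomal protein genes, whose median was -0.58. BIP1 had 148, 179 and 181 CPM at 120 min and 103, 133 and 153 CPM at 180 min, so its level was already above that of untouched leaves by then.

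**Figure D4:**
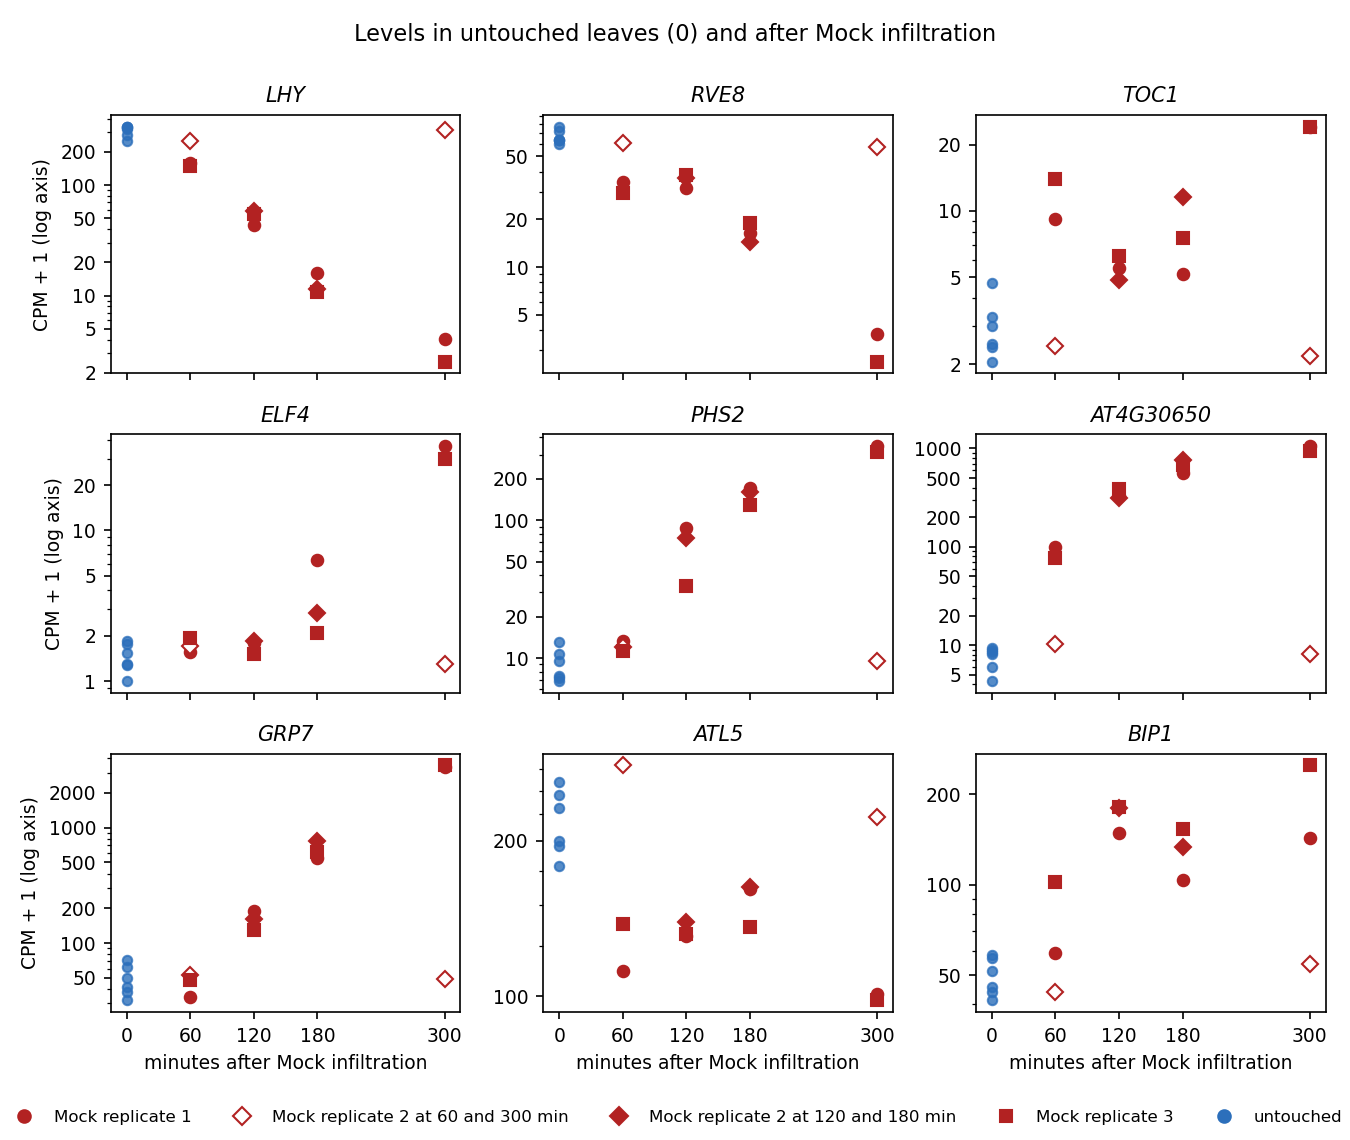
Levels of 9 genes as CPM + 1 on log axes, in untouched leaves (blue, at 0 min) and 60, 120, 180 and 300 min after Mock infiltration (red, 1 symbol per replicate). LHY and RVE8 run down and GRP7, PHS2 and AT4G30650 run up over the times, ELF4 is highest at 300 min in replicates 1 and 3, and Mock replicate 2 at 60 and 300 min (open diamonds) sits at untouched levels for several genes, as for LHY at 250 and 316 CPM.

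The choice of untouched libraries mattered. Among themselves, the 3 flg22+Ed 0 min and the 3 Ed 0 min libraries differed in 0 of 14087 genes (0% higher, 0% lower, 0% in all) by edgeR, with 912 at an unadjusted p under 0.05, and by DESeq2 in 0 higher and 3 lower (with the replicate block 0 and 2). The series holds 6 more 0 min libraries, those of Mock 0 min and flg22 0 min. With all 12 as the control, 0 genes were called with the 3 Mock 300 min libraries and 198 higher and 266 lower without replicate 2. Leaving flg22 0 min replicate 2 and Mock 0 min replicate 2 out of the 12 gave 1423 higher and 727 lower with Mock 300 min replicate 2, and 2741 and 2716 without it. LHY was at 4.64 CPM in flg22 0 min replicate 2 and at 106 CPM in Mock 0 min replicate 2, against 267 to 390 CPM in the other 4.

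Promoter motifs were counted over the 250 bases before the gene start, on both strands, in 27443 protein-coding genes. The evening element was in 2.36% of all these promoters and in 2.47% of those of 14466 tested genes with a window. It was in 5.73% of the promoters of genes higher without replicate 2 and in 20 of the 96 (20.8%) of genes higher by more than 3. Lower genes had it in 1.3%, and those lower by more than 3 in 3 of 109 (2.75%). Genes not called had it in 2.02%. Of the 12 evening clock genes 5 held it (41.7%), TOC1, PRR5, PCL1 and FKF1 among them, and GI and ELF4 held no match in this window. The G-box was in 7.61% of promoters of tested genes, in 9.53% of those of lower genes and in 28 of the 109 (25.7%) of genes lower by more than 3, against 14.6% of those higher by more than 3. Of 15 morning clock genes 8 held it (53.3%), LHY and CCA1 among them.

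The site II element was in 18.6% of promoters of tested genes, 21.6% of those of lower genes but 4.59% of those lower by more than 3, 14.1% of those of higher genes, and in 9 of 11 ribosomal protein genes (81.8%). The ERSE was in 0.995% of promoters of tested genes, 1.38% of those of higher genes, 1.02% of those of lower genes and 5 of 16 endoplasmic reticulum chaperone genes (31.2%). The telo box, AAACCCTA, known from plant ribosomal protein genes, was in 3.64% of promoters of tested genes, 2.35% of those of higher and 5.25% of those of lower genes, 0.917% of those lower by more than 3, and in 0 of the 11 ribosomal protein genes. The CCA1-binding site, AAAAATCT, was in 6.94% of promoters of tested genes, 7.81% of those of higher genes and 6.47% of those of lower genes (5.5% of those lower by more than 3). The I-box, GATAAG, was in 12.7% of promoters of tested genes and in 24% of those of genes higher by more than 3 and 7.34% of those of genes lower by more than 3. These are counts of letters; no test was made of them, and a match is not a site in use.

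**Figure D5:**
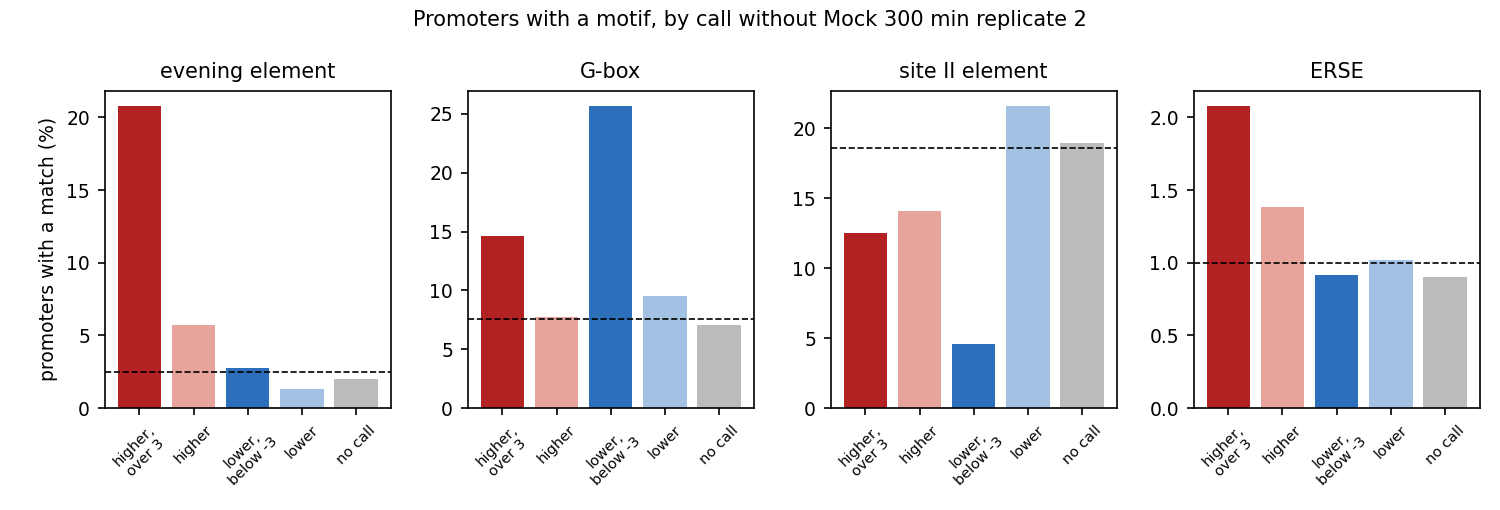
Share of promoters (%) with a match to each of 4 motifs, by call without Mock 300 min replicate 2; bars for higher and lower genes include those over 3 and below -3 on the log2 scale, and the dashed line is the share over tested genes. The evening element reaches 20.8% in genes higher by more than 3 and the G-box 25.7% in genes lower by more than 3, while the bars for genes not called lie near the dashed line in each panel.

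The genes whose pattern over the 9 libraries was most like LHY, by the correlation of log2(CPM + 1), were COL2 (r = 0.998), NDA1, RD28 and NIA2 (each 0.997) and RVE8 (0.996). The most opposite were AT2G33830 (r = -0.997), BASS2 and OEP16-1 (each -0.996), and AT1G08890 and AT2G15960 (each -0.995). These 9 points fall into 2 clusters, Mock 300 min replicates 1 and 3 against the other 7, so a high value mostly says that the gene separates these 2 libraries, and it is given as a description. COL2, a relative of the flowering gene CONSTANS, had 15.1, 301 and 9.2 CPM in the Mock 300 min libraries, against 291 to 351 CPM in untouched leaves (median 324). OEP16-1, a protein of the outer plastid envelope, had 1390, 47.8 and 1440 CPM, against 47.6 to 62.4 CPM (median 54.8), and BASS2, the pyruvate carrier of plastids, 212, 73.4 and 247 CPM, against 70.3 to 82.1 CPM (median 77.1). Replicate 2 was inside the untouched range for all 3.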

How the data were processed

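Counts per gene of Smart-3SEQ reads were deposited by the authors as 1 table of 25036 genes and 60 libraries. Per the labels' protocols, reads carry molecular identifiers of 5 bases; the counting tool, its annotation and any collapse of duplicates were not given in the sources used here. The submitters' processing notes name bcl2fastq 2.17.1.14, STAR 2.4.2a and TAIR10; the table holds no coordinates, and promoters came from RefSeq TAIR10.1, matched by locus tag (24888 genes, 99.4%). Genes passing edgeR's filterByExpr over the 9 libraries were tested in R 4.3.3 with edgeR 4.0.16 (TMM, quasi-likelihood, Benjamini-Hochberg), leaving 7 residual degrees of freedom, or 6 without Mock 300 min replicate 2. CPM used TMM factors over all libraries. limma 3.58.1 (voom) and DESeq2 1.42.0, other normalizations, filters, controls, the replicate block and left-out libraries were alternatives. The design text ties replicate numbers to independent experiments. Deviations of same-numbered libraries from their group means correlated at a median r of 0.237 (0.133 to 0.532 over 7 pairs). For other numbers the median was -0.19, from -0.433 to 0.255, so the ranges overlapped. Deviations were centred within groups, which lowers the values of other numbers when those of the same number are high. The comparison and the 30 gene lists were chosen with earlier results of these data known. Genes were named as list members or by rank among calls with a mean of at least 5 CPM in 1 group: the 10 largest changes in each direction without replicate 2 with replicates 1 and 3 outside the untouched range, the 5 in each direction with 9 libraries with all Mock libraries outside it, the 3 in each direction against Mock 180 min, and the 5 genes most and least like LHY. The fits were tested on simulated data, where calls without replicate 2 held more unchanged genes than the threshold allows.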

Additional observations from a re-analysis of the deposited data

Results flagged for a closer look

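Among the 132 genes examined, the highest or lowest of the 6 untouched libraries lay far from the other 5 in 7 genes, and chance alone sets apart about 1 group in 20. In flg22+Ed 0 min replicate 3, the touch genes TCH4 and TCH3 had 503 and 453 CPM, against 154 and 97.1 CPM in the next library, which was Ed 0 min replicate 3. CAT2 had 4680 CPM in flg22+Ed 0 min replicate 1, against 3710 CPM in the next, and PRR3 had 0.857 CPM in the same library, against 0.277 CPM. PDC2 had 10.3 CPM in Ed 0 min replicate 3, against 6 CPM. In Ed 0 min replicate 1, SDF2 had 11.4 CPM, against 17.4 CPM in the next lowest library, and PRR5 had 0.285 CPM, which is 1 count, where the other 5 had 0.

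An untouched library outside the comparison, flg22 0 min replicate 2, carried the pattern of Mock 300 min replicates 1 and 3. The genes called higher without Mock 300 min replicate 2 had a median log2 difference from the 6 untouched libraries of 1.03 in it, against 0.986 and 1.06 in Mock 300 min replicates 1 and 3 and 0.0421 in Mock 300 min replicate 2. The genes called lower had medians of -1.03 in it, -1 and -0.956 in Mock 300 min replicates 1 and 3, and -0.0337 in Mock 300 min replicate 2. Its Spearman correlation was 0.948 to 0.974 with Mock 300 min replicates 1 and 3 and 0.806 to 0.839 with the 6 untouched libraries. Whether any library carries another's label was not tested, and all were kept as labelled.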

How the results depend on the processing

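Counts with all 9 libraries (351 higher and 18 lower) changed with most settings. They were 582 and 45 with no filter, 120 and 3 at 10 CPM in 3 libraries, 792 and 392 with DESeq2, and 0 and 0 with limma-voom (3689 genes at an unadjusted p under 0.05). With every library of the series in the fit they were 854 and 235. Leaving out the 4 libraries that stand apart (replicate 2 of Mock 300, Mock 60, Mock 0 and flg22 0 min) gave 2464 and 1927, which is a count without Mock 300 min replicate 2. With 12 untouched libraries they were 0 and 0 (1698 at an unadjusted p under 0.05), with 10 they were 1423 and 727, and with the Ed or the flg22+Ed 0 min libraries alone 0 and 0. Leaving out 1 library gave 0 to 2254 higher and 0 to 2458 lower, the highest without Mock 300 min replicate 2. Without that replicate, 12 untouched libraries gave 198 and 266, leaving out 1 more library gave 1414 to 2256 and 1408 to 2453, and the other settings stayed within 1.5 times. Against Mock 180 min, DESeq2 gave 48 and 36 with replicate 2, and leaving out 1 library gave 0 to 117 and 0 to 143. Without replicate 2 it gave 211 and 264, library sizes alone gave 290 lower, and leaving out 1 more gave 16 to 144 and 8 to 225. Between the untouched sets, DESeq2 called 3 lower. With the replicate block, 59 genes were lower with 9 libraries, 227 higher and 297 lower against Mock 180 min without replicate 2, and 2 lower between the untouched sets; the other genome-wide counts stayed within 1.5 times. Among 230 named or listed genes called without replicate 2, 4577 recomputed values kept direction and call, 450 lost the call and 1 changed sign: the sugar transporter gene STP1 with 12 untouched libraries (-0.53, error 1.17, adjusted p = 0.808 in edgeR's test). With 9 libraries, 426 kept the call and 568 lost it over 46 genes. The causes were not tested. At 2082400 to 3868874 counts, 3 counts are 0.767 to 1.53 CPM, which limits what can be seen of genes near 0.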
